A study of Bos taurus with 12 samples.

Results

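Tenascins, thrombospondins and fibulins are secreted proteins of the extracellular matrix, and SPARC, periostin (POSTN) and fibronectin (FN1) were grouped with them. The 10 genes TNC, TNXB, THBS1, THBS2, SPARC, POSTN, FBLN1, FBLN2, FBLN5 and FN1 were chosen by name from the mRNA table, where they made up 10 of 33714 entries. Circular RNAs (circRNAs) whose listed host gene is TNC or TNXB were added, which gave 22 of 14070 circRNA entries, 21 for TNC and 1 for TNXB. All 10 mRNAs passed the filter on low values that left 15402 mRNAs for testing.

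RNA was sequenced from bovine (Bos taurus) intramuscular preadipocytes, the precursors of the fat cells that lie between muscle fibres, at 0, 3, 6 and 9 d of induced differentiation. Each day had 3 libraries, 12 in all. By the study's methods the source of the cells was longissimus dorsi of Qinchuan calves sampled as newborns. The study's methods call the 3 libraries of a day biological replicates, and the number of animals behind them is not given in the sources used here. The p-values measure the spread between these libraries, and whether it includes variation between animals is not known. The labels call the cells adipocytes of intramuscular fat and describe 1 protocol for all groups. Cells were grown in DMEM-F12 medium with fetal bovine serum and antibiotics, and induction began near confluence with DEX (dexamethasone), IBMX and insulin and went on with insulin alone. Doses differ between the labels and the study's methods and are not used here. The 0 d group had no induction, and the 3, 6 and 9 d groups shared the same agents and differed in time.

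Most of these proteins are called matricellular, because they bind collagens, integrins and growth factors and change how cells attach more than they carry load. Fibronectin forms fibrils that other matrix proteins assemble on, and fibulins take part in elastic fibres and basement membranes. Fat precursors are known to remodel a fibronectin-rich matrix as they differentiate, and SPARC is known to restrain fat cell formation.

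mRNA levels were given as FPKM, fragments scaled to transcript length and to the fragments mapped in each library. Markers of cell types were read before the results. Summed over the 6 of 8 adipocyte markers in the table, the level was 138 ± 5.62, 770.5 ± 13.1, 275 ± 14.6 and 234 ± 15.1 FPKM (mean ± SD, n = 3) at 0, 3, 6 and 9 d. PLIN2, a coat protein of lipid droplets that many cell types make, held most of that sum on each day, with 668 ± 17.6 FPKM at 3 d. FABP4, a fatty acid carrier of fat cells, had 3.30 ± 0.255, 91.1 ± 4.42, 26.4 ± 1.95 and 9.07 ± 1.61 FPKM at 0, 3, 6 and 9 d. Of the markers that define mature fat cells, those read were near 0, since ADIPOQ was at most 1.64 FPKM, CIDEC at most 0.57 and CEBPA at most 0.26 in any library. PLIN1 and PPARG of the same list were not matched by name to a single entry, so their levels are not covered here. From these low levels ADIPOQ was called higher in all 3 comparisons with 0 d (log2 fold changes 2.68, 2.22 and 2.34), CIDEC at 6 and 9 d (1.14 and 1.43) and CEBPA in none. In the 6 d libraries ADIPOQ had 1.64, 0.22 and 0.24 FPKM, so its 6 d mean rests largely on 1 library. LPL had 4.53 ± 0.148, 10.6 ± 1.66, 3.03 ± 0.197 and 6.34 ± 1.49 FPKM on the 4 days and was called higher at 3 d (1.198). PLIN2, FABP4 and LPL were present at 0 d already, and LPL had a lower mean at 6 d than at 0 d. ADIPOQ, CIDEC and CEBPA stayed under 2 FPKM. By level, these markers do not settle the label of adipocytes. The cells are called preadipocyte cultures here after the study's methods. That name is not a reading of the markers, since DLK1 was near 0 and skeletal muscle markers were present, as given next. Within bulk RNA, fewer cells of a type and less RNA per cell cannot be told apart.

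Markers of other cell types were present too. The 8 fibroblast and preadipocyte markers summed to 24761 ± 512, 50054 ± 1392, 49481 ± 1271 and 63703 ± 1373 FPKM at 0, 3, 6 and 9 d, led by COL1A2 at 0 d and by DCN afterwards. Of the 7 tested, 4 rose in 3 d vs. 0 d, namely DCN, PDGFRA, THY1 and LUM (log2 fold changes 2.09, 2.54, 1.85 and 1.56), and 3 fell, namely COL1A1, COL1A2 and PDGFRB (-1.68, -1.18 and -1.38). DCN carried most of the higher sum (9949 ± 534 to 42430.4 ± 936 FPKM). DLK1, a preadipocyte marker, was listed at 0 in every 3 d library and was at most 0.13 FPKM in any library. Skeletal muscle markers (7 of 8 in the table) summed to 876 ± 57.9, 286 ± 15.3, 399 ± 21.3 and 314 ± 18.8 FPKM at 0, 3, 6 and 9 d, led by DES. MYOD1, a transcription factor of the muscle lineage, had 268 ± 32.5 FPKM at 0 d and 109 ± 2.88 at 3 d, and CKM, a muscle creatine kinase, had 133 ± 2.72 and 3.28 ± 1.54. The 6 smooth muscle and pericyte markers summed to 1960 ± 85.6, 124 ± 6.67, 2118 ± 81.4 and 784 ± 44.7 FPKM, led by ACTA2 on the days other than 3 d (1697 ± 70.1 FPKM at 0 d and 26.8 ± 2.17 at 3 d), whereas the pericyte marker RGS5 was listed at 0 at 0 and 3 d and was at most 0.16 FPKM in any library. Of its 5 tested genes, ACTA2, TAGLN and CNN1 fell in 3 d vs. 0 d (log2 fold changes -5.98, -3.41 and -3.41). Within that list MCAM rose in 3 d vs. 0 d (3.58 ± 1.07 to 17.5 ± 2.67 FPKM, log2 fold change 2.29), and MYH11 led the sum at 3 d with 57.2 ± 5.18 FPKM against 23.3 ± 3.26 at 0 d (limma adjusted p = 0.118, not called). The 4 tendon markers summed to 37.4 ± 1.65, 5.14 ± 1.34, 21.7 ± 5.15 and 37.9 ± 3.10 FPKM, led by MKX, and the tenocyte marker TNMD was listed at 0 at 3 d. SCX, of the same list, was highest at 3 d (0.62 ± 0.122, 1.17 ± 0.101, 0.597 ± 0.202 and 0.54 ± 0.151 FPKM on the 4 days), and THBS4 was lowest at 6 d (0.327 ± 0.0987 FPKM). Endothelial markers (6 genes, led by VWF) summed to at most 3.71 FPKM in any library. Schwann cell markers (4 genes, led by S100B) reached at most 11.8 FPKM. Blood and immune markers (6 genes, led by CD14 at 0, 3 and 9 d and by CD79A at 6 d) reached at most 5.16 FPKM, with PTPRC and HBB listed at 0.

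**Figure D1:**
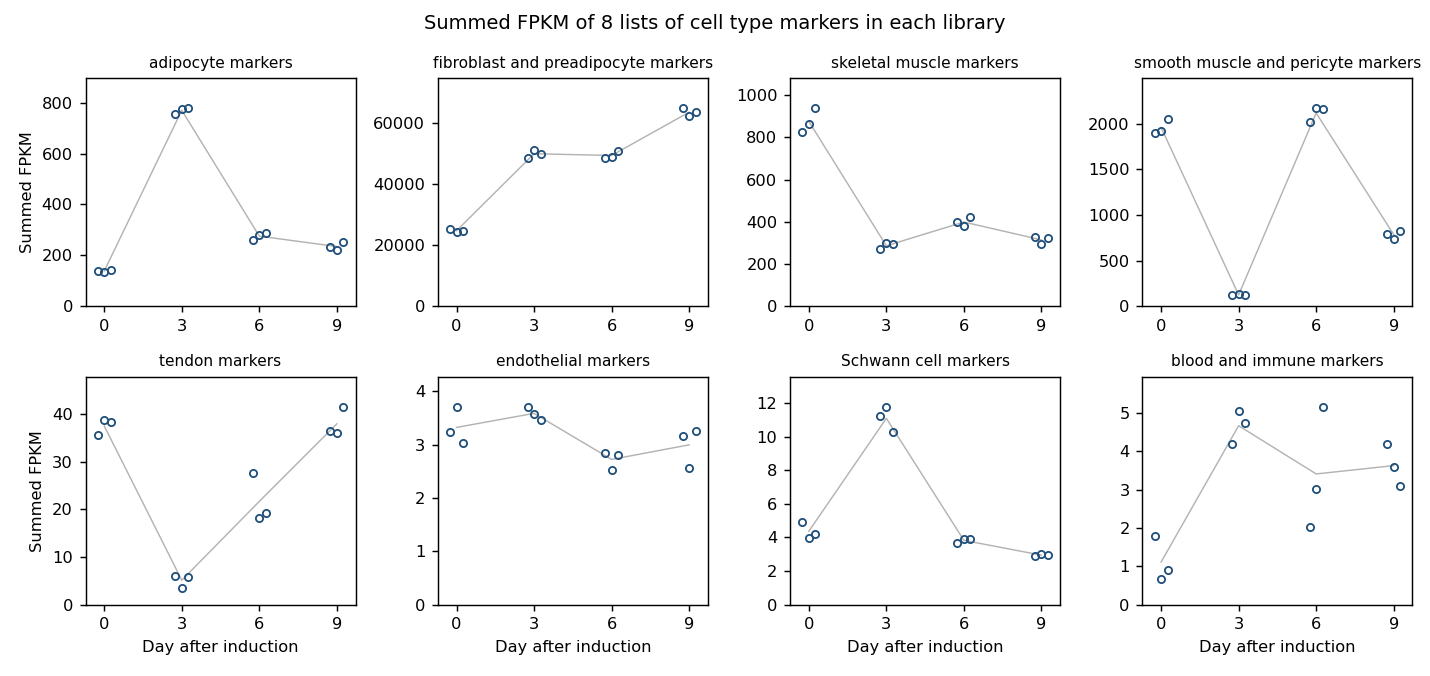
Summed FPKM (vertical axis, linear, from 0) of 8 lists of cell type markers against day after induction, with 1 circle per library and a line through the mean of each day. The adipocyte sum is highest at 3 d (770.5 ± 13.1 FPKM), and the smooth muscle and pericyte sum (124 ± 6.67 FPKM) and the tendon sum (5.14 ± 1.34 FPKM) are lowest at 3 d.

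The comparisons with 0 d ask how far each gene moved from the uninduced state, and the other pairs of days order the levels along the course. Each mRNA was tested with limma on log2(FPKM + 0.1), and a change was called at an absolute log2 fold change over 1 with a Benjamini-Hochberg adjusted p under 0.05 over all 15402 mRNAs. The log2 fold changes are therefore on the log2(FPKM + pseudocount) scale, which understates the change of low genes. Changes written as fold (for example 65.8-fold) are ratios of the mean FPKM of the days without a pseudocount, so the 2 can differ. The comparisons with 0 d share the 3 libraries of 0 d.

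In 3 d vs. 0 d, 6 of the 10 genes were called, 0 higher and 6 lower, where 23.3% of all tested mRNAs were called, 8.06% higher and 15.2% lower. The 6 that fell were TNC, TNXB, THBS1, POSTN, FBLN2 and FBLN5. The median log2 fold change was -1.57 over the 10 genes and -0.06 over all tested mRNAs. In 6 d vs. 0 d, 6 genes were called, THBS1 and FN1 higher and TNXB, POSTN, FBLN1 and FBLN5 lower, where 11.4% of all mRNAs were called, 3.39% higher and 7.97% lower. The 10 genes then had a median of -0.30 against -0.15 for all. At 9 d, 3 genes were called against 0 d, THBS1 higher and TNXB and FBLN1 lower, where 10.9% of all mRNAs were called, 3.41% higher and 7.47% lower. That median was 0.07 over the 10 genes and -0.19 over all.

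Most of the 10 genes were higher again after 3 d. In 6 d vs. 3 d, 8 of the 10 were called, 6 higher (TNC, THBS1, POSTN, FBLN2, FBLN5 and FN1) and 2 lower (TNXB and FBLN1), where 19.1% of all mRNAs were called, 9.85% higher and 9.23% lower. The median log2 fold change was 1.21 over the 10 genes and -0.09 over all. In 9 d vs. 3 d, 9 were called, 7 higher and 2 lower, with THBS2 added to those that rose, where 20.5% of all mRNAs were called, 10.2% higher and 10.3% lower. The median there was 1.34 over the 10 genes and -0.13 over all. In 9 d vs. 6 d, POSTN alone was called, higher, where 4.43% of all mRNAs were called, 2.55% higher and 1.89% lower. The 10 genes had a median of 0.24 and all mRNAs -0.04.

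The 10 genes together held 1.39 ± 0.00283%, 0.746 ± 0.0144%, 2.54 ± 0.0456% and 2.26 ± 0.0559% of the summed FPKM (SD, n = 3) at 0, 3, 6 and 9 d. Their combined level thus had its lowest point at 3 d and its highest at 6 d, and libraries of different days did not overlap. THBS1 alone held 1.09 ± 0.0232% at 6 d.

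**Figure D2:**
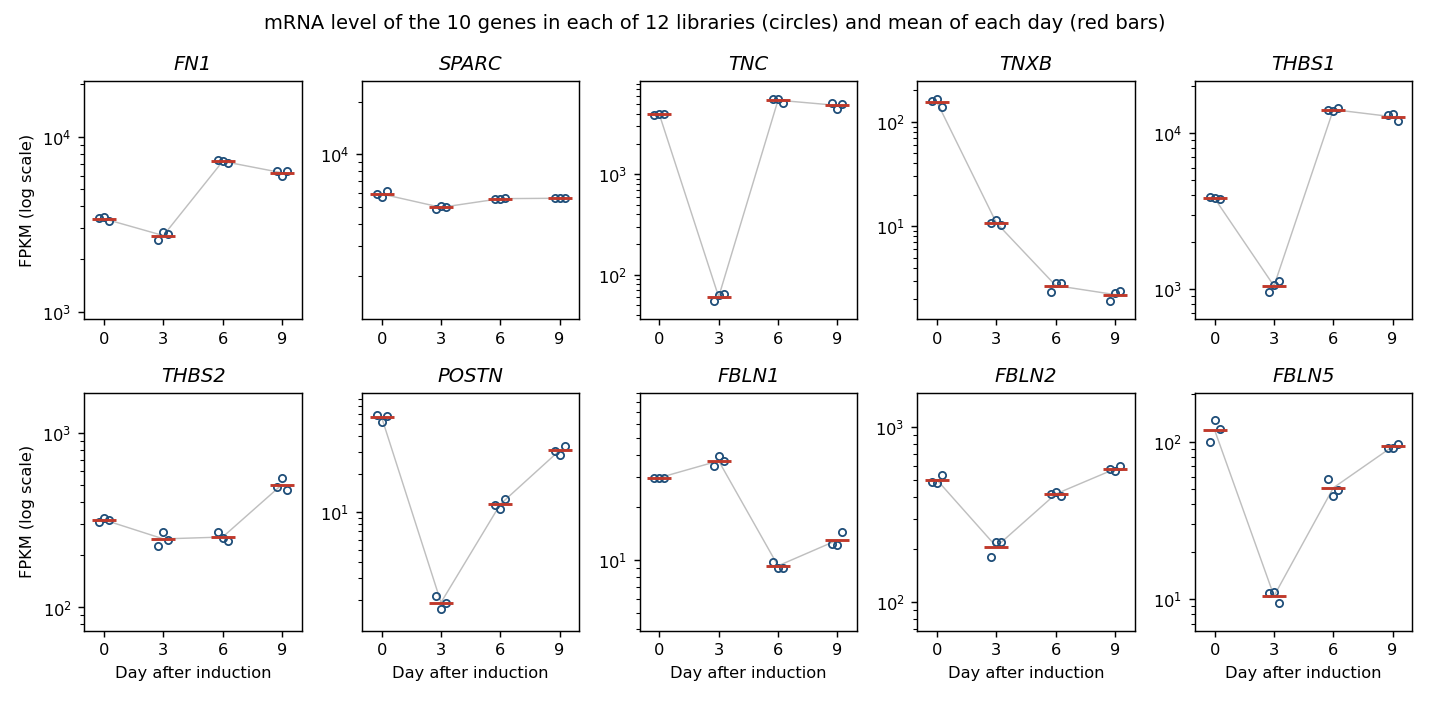
mRNA level in FPKM (vertical axis, log scale, with a range of its own for each gene) of the 10 genes against day after induction, with 1 circle per library and a red bar for the mean of each day. TNC falls from 3957 to 60.1 FPKM between 0 and 3 d and stands at 5473 FPKM at 6 d, whereas TNXB goes from 154 to 2.21 FPKM over the 4 days.

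FN1 encodes fibronectin, the fibril-forming glycoprotein that cells bind through integrins. It was at 3413, 3498 and 3282 FPKM in the 0 d libraries, at 2560.3, 2839 and 2769 FPKM at 3 d, at 7374, 7309.6 and 7044 FPKM at 6 d and at 6369, 5969 and 6346 FPKM at 9 d. The 6 d and 9 d libraries were all above those of 0 d and 3 d, and no libraries of different days overlapped. FN1 rose 2.13-fold in 6 d vs. 0 d (log2 fold change 1.09, SE 0.05, limma adjusted p = 1.34119e-07). FN1 had a log2 fold change of 0.87 in 9 d vs. 0 d (limma adjusted p = 7.91028e-07), below the threshold of 1, and with FPKM rescaled between libraries it was 1.08 and called. The order of the days was 6, 9, 0 and 3 d, and all neighbours differed at adjusted p under 0.05 (9 d vs. 6 d, log2 fold change -0.22, adjusted p = 0.0107). CLEC3B (Pearson r = 0.991 over the 12 libraries), C5H12orf75 (0.983) and UPK1B (0.981) had the levels most like FN1 among 9957 mRNAs with a mean of at least 1 FPKM. These correlations, like those given for the other genes, rest mostly on the differences between the 4 days.

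SPARC encodes a collagen-binding matricellular glycoprotein also called osteonectin. Its level was 5961, 5664 and 6148 FPKM at 0 d, 4861, 5045 and 4991 FPKM at 3 d, 5556, 5529.7 and 5629 FPKM at 6 d and 5616, 5599 and 5589 FPKM at 9 d. The 3 d libraries were the lowest, and those of 6 and 9 d overlapped. SPARC was the only one of the 10 genes that was called in none of the 6 pairs of days, with log2 fold changes between -0.25 (3 d vs. 0 d, limma adjusted p = 0.000203) and 0.17 (9 d vs. 3 d). Its order was 0, 9, 6 and 3 d, in which 0 and 9 d (adjusted p = 0.117) and 9 and 6 d (adjusted p = 0.917) did not pass the test. At 6 and 9 d the direction against 0 d was not settled. Rescaled FPKM gave 0.08 in place of -0.09 at 6 d and 0.12 in place of -0.08 at 9 d, whereas SPARC stayed lower at 3 d (-0.17). SPARC ranked between place 17 and place 24 of all mRNAs by FPKM in every library. EXOC7 (r = 0.983), SYDE1 (0.982) and PLCB3 (0.980) were most like it.

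TNC encodes tenascin-C, a hexameric glycoprotein of healing wounds, tendon and tumour stroma that modulates adhesion to fibronectin. Its level was 3911, 3980.2 and 3980.0 FPKM in the 0 d libraries, at 54.1, 62.3 and 64.0 FPKM at 3 d, at 5625, 5663 and 5131 FPKM at 6 d and at 5088, 4510.0 and 4969 FPKM at 9 d. The 3 d libraries stood far below all others, and none overlapped with another day. TNC fell 65.8-fold in 3 d vs. 0 d (log2 fold change -6.04, SE 0.07, limma adjusted p = 9.20246e-12) and rose 91.0-fold in 6 d vs. 3 d (log2 fold change 6.51, SE 0.07). In 6 d vs. 0 d its log2 fold change was 0.47 (limma adjusted p = 0.000658) and in 9 d vs. 0 d it was 0.29 (limma adjusted p = 0.00972), neither of them called. By mean the days ranked 6, 9, 0 and 3 d, and 9 d vs. 6 d did not pass the test (log2 fold change -0.17, adjusted p = 0.128). By rank among all mRNAs TNC held places 31 to 34 in the 0 d libraries, 2038 to 2270 in those of 3 d, 22 to 25 in those of 6 d and 25 to 27 in those of 9 d. PPP1R3B (r = 0.998), FSTL3 (0.998) and VIM (0.996) were most like it. The smooth muscle marker ACTA2 had its own low point at 3 d (26.8 ± 2.17 FPKM) and stood at 1583 ± 69.3 FPKM at 6 d and 598 ± 30.2 at 9 d, and the tendon marker MKX had 3.53 ± 1.33 FPKM at 3 d and 20.7 ± 4.83 at 6 d. TAGLN (224 ± 18.6, 21.0 ± 2.69, 448 ± 16.3 and 151 ± 2.91 FPKM on the 4 days) and CNN1 were also lowest at 3 d, whereas MCAM, MYH11 and SCX were highest then, of which MCAM alone was called in 3 d vs. 0 d. The part of these cell types in the result was not tested.

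TNXB encodes tenascin-X, which binds collagen fibrils and whose loss causes a form of Ehlers-Danlos syndrome. In human it overlaps a steroid hydroxylase gene, and how reads of overlapping genes were shared out is not given in the sources used here. TNXB was at 159, 164 and 139.7 FPKM at 0 d, at 10.7, 11.5 and 10.2 FPKM at 3 d, at 2.35, 2.87 and 2.88 FPKM at 6 d and at 1.93, 2.30 and 2.40 FPKM at 9 d. The level went down from day to day, with overlap between 6 and 9 d only. TNXB fell 14.3-fold in 3 d vs. 0 d (log2 fold change -3.82, SE 0.11, limma adjusted p = 1.85858e-09), 57.1-fold in 6 d vs. 0 d (log2 fold change -5.79) and 69.7-fold in 9 d vs. 0 d (log2 fold change -6.06, SE 0.11, limma adjusted p = 2.83437e-09). The order was 0, 3, 6 and 9 d, of which 6 and 9 d did not pass the test (log2 fold change -0.28, adjusted p = 0.117). NPC1 (r = 0.993), TRIM55 (0.988) and ERBB3 (0.987) were most like it. Skeletal muscle markers also had their highest sum at 0 d (876 ± 57.9 FPKM) and lower sums later (286 ± 15.3, 399 ± 21.3 and 314 ± 18.8 at 3, 6 and 9 d), and MYOD1 fell in all 3 comparisons with 0 d (log2 fold change -2.31 at 9 d). Unlike TNXB, DES and CKM rose in 6 d vs. 3 d (log2 fold changes 1.19 and 2.02), and CKM rose in 9 d vs. 3 d too (3.07). Like TNXB, MYOD1 fell in 6 d vs. 3 d (-1.23). MYF5, MYOG, ACTA1 and MYH3 had negative values there that were not called (-0.59, -0.43, -0.75 and -0.35), and the list median was -0.43. In 9 d vs. 3 d MYOD1 and MYF5 fell (-1.02 and -1.03), calls that were lost with rescaled FPKM. The part of muscle-lineage cells in the TNXB result was not tested.

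The 2 tenascins parted after 3 d. The ratio of TNC to TNXB was 25.8 ± 2.33, 5.60 ± 0.639, 2049 ± 313 and 2223 ± 363 (SD, n = 3) at 0, 3, 6 and 9 d. It was lowest in the 3 d libraries and the 6 and 9 d libraries overlapped.

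THBS1 encodes thrombospondin-1, a trimeric glycoprotein that binds CD36 and CD47 and can activate latent TGF-beta. Its level was 3881, 3823 and 3764 FPKM at 0 d, 964, 1060.5 and 1124 FPKM at 3 d, 14184, 13981 and 14436 FPKM at 6 d and 13047, 13239 and 12021 FPKM at 9 d. No libraries of different days overlapped. THBS1 was called in each comparison with 0 d, lower at 3 d and higher later. It fell 3.64-fold in 3 d vs. 0 d (log2 fold change -1.87, SE 0.06, limma adjusted p = 2.83373e-09). It rose 3.71-fold in 6 d vs. 0 d (log2 fold change 1.89, limma adjusted p = 1.31255e-08) and 3.34-fold in 9 d vs. 0 d (log2 fold change 1.74, limma adjusted p = 2.38859e-08). In 6 d vs. 3 d the rise was 13.5-fold. The order was 6, 9, 0 and 3 d, and 6 and 9 d did not pass the test (adjusted p = 0.0928). THBS1 was mRNA number 10 or 11 by FPKM at 6 d and number 11 in the 9 d libraries. ANXA5 (r = 0.997), ISG12(B) (0.996) and ERMP1 (0.995) were most like it.

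THBS2 encodes thrombospondin-2, its closest relative, which is known to limit blood vessel growth and to shape collagen fibrils. It was at 309, 327 and 315 FPKM at 0 d, at 226, 270.4 and 244 FPKM at 3 d, at 269.9, 249 and 240.1 FPKM at 6 d and at 490.4, 552 and 473 FPKM at 9 d. The 9 d libraries were above all others, and those of 3 and 6 d overlapped. THBS2 rose 2.05-fold in 9 d vs. 3 d (log2 fold change 1.03, SE 0.08, limma adjusted p = 2.85273e-06), a call that was lost without 3 d replicate 1 (0.97) or 9 d replicate 2 (0.97). Its log2 fold change in 9 d vs. 6 d was 0.996 (limma adjusted p = 2.21605e-05), just under the threshold of 1. No comparison of THBS2 with 0 d was called (log2 fold changes -0.37, -0.33 and 0.67). The order was 9, 0, 6 and 3 d, and 6 and 3 d did not pass the test (adjusted p = 0.728). HEPH (r = 0.975), NR4A1 (0.964) and KLF5 (0.957) were most like it.

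The ratio of THBS1 to THBS2 was 12.1 ± 0.441, 4.27 ± 0.342, 56.3 ± 3.79 and 25.3 ± 1.31 (SD, n = 3) at 0, 3, 6 and 9 d. It thus peaked at 6 d, the day on which THBS1 was highest and THBS2 was still near its 3 d level, and no days overlapped.

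POSTN encodes periostin, a matricellular protein of tendon, periosteum and repairing tissue that links collagen, fibronectin and tenascin-C. It was at 59.4, 52.3 and 58.1 FPKM in the 0 d libraries, at 2.13, 1.70 and 1.88 FPKM at 3 d, at 11.4, 10.5 and 12.7 FPKM at 6 d and at 30.7, 28.5 and 33.8 FPKM at 9 d. Its libraries separated all 4 days. POSTN fell 29.7-fold in 3 d vs. 0 d (log2 fold change -4.83, SE 0.11, limma adjusted p = 3.15817e-10) and was still 4.90-fold lower in 6 d vs. 0 d (log2 fold change -2.29, limma adjusted p = 1.77653e-07). The log2 fold change in 9 d vs. 0 d was -0.87 (limma adjusted p = 0.000161) and was not called. POSTN rose 2.69-fold in 9 d vs. 6 d (log2 fold change 1.42, SE 0.11, limma adjusted p = 1.4678e-05). The order was 0, 9, 6 and 3 d, and all neighbours passed adjusted p under 0.05. SEMA3C (r = 0.995), EIF4E3 (0.993) and CDS1 (0.991) were most like it. MKX, named above, followed a similar order (35.6 ± 1.45, 3.53 ± 1.33, 20.7 ± 4.83 and 36.8 ± 2.92 FPKM at 0, 3, 6 and 9 d), whereas SCX of the same list was highest at 3 d, and the part of tendon cells in the result was not tested.

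**Figure D3:**
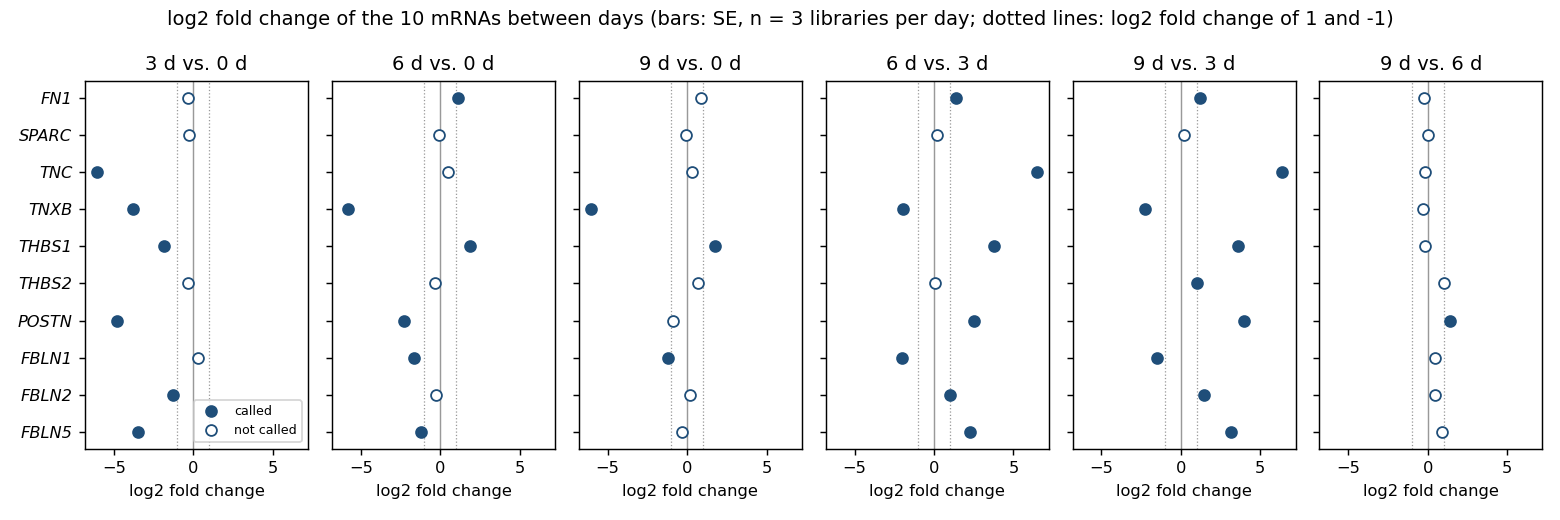
log2 fold change (horizontal axis, on log2(FPKM + 0.1)) of the 10 mRNAs in the 6 pairs of days, with filled circles for called changes, open circles for others, bars for the SE (mostly within the circles) and dotted lines at 1 and -1. TNC and POSTN lie at -6.04 and -4.83 in 3 d vs. 0 d, TNXB lies at -6.06 in 9 d vs. 0 d, and in 9 d vs. 6 d POSTN alone is filled (1.42), with THBS2 at 0.996.

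FBLN1 encodes fibulin-1, which binds fibronectin, laminin and elastic fibres. Its level was 29.5, 29.5 and 29.6 FPKM at 0 d, 34.3, 39.4 and 36.8 FPKM at 3 d, 9.68, 9.02 and 9.04 FPKM at 6 d and 12.4, 12.2 and 14.4 FPKM at 9 d. FBLN1 was the only one of the 10 genes whose level was highest at 3 d, though the log2 fold change in 3 d vs. 0 d was 0.32 (limma adjusted p = 0.00634) and was not called. FBLN1 fell 3.19-fold in 6 d vs. 0 d (log2 fold change -1.66, SE 0.08, limma adjusted p = 1.78374e-07) and 2.28-fold in 9 d vs. 0 d (log2 fold change -1.18, SE 0.08, limma adjusted p = 2.24091e-06). With FPKM rescaled between libraries the value of 9 d vs. 0 d was -0.98 and not called. The order was 3, 0, 9 and 6 d, and all neighbours passed adjusted p under 0.05 without overlap of libraries. TNFRSF1B (r = 0.994) and PKIA (0.989) were among the mRNAs most like it.

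FBLN2 encodes fibulin-2, which joins fibrillin microfibrils and basement membranes. It was at 485, 480.6 and 531 FPKM at 0 d, at 181, 221 and 220.2 FPKM at 3 d, at 416, 426 and 402 FPKM at 6 d and at 576, 559 and 597 FPKM at 9 d. The 3 d libraries were the lowest, and no days overlapped. FBLN2 fell 2.41-fold in 3 d vs. 0 d (log2 fold change -1.27, SE 0.08, limma adjusted p = 4.38217e-07) and rose 2.79-fold in 9 d vs. 3 d (log2 fold change 1.48, limma adjusted p = 1.7576e-07). Its rise in 6 d vs. 3 d (log2 fold change 1.01, limma adjusted p = 3.41374e-06) was no longer called without 3 d replicate 1 (0.91) or without 6 d replicate 2 (0.99). The order was 9, 0, 6 and 3 d, and 9 and 0 d did not pass the test (adjusted p = 0.062). EFEMP2, itself a fibulin gene (r = 0.996), EHBP1L1 (0.994) and MRC2 (0.994) were most like FBLN2.

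FBLN5 encodes fibulin-5, which elastic fibre assembly needs. It was at 99.0, 137 and 119.6 FPKM at 0 d, at 10.94, 11.03 and 9.44 FPKM at 3 d, at 58.1, 45.5 and 49.4 FPKM at 6 d and at 91.8, 90.8 and 97.3 FPKM at 9 d. The 3 d libraries were far below the rest, and no days overlapped. FBLN5 fell 11.3-fold in 3 d vs. 0 d (log2 fold change -3.48, SE 0.13, limma adjusted p = 8.46036e-09) and was 2.32-fold lower in 6 d vs. 0 d (log2 fold change -1.21, limma adjusted p = 4.56166e-05). In 9 d vs. 0 d its log2 fold change was -0.33 (limma adjusted p = 0.0653) and did not pass the test. The order was 0, 9, 6 and 3 d, and the other neighbours passed adjusted p under 0.05. NOTCH1 (r = 0.995), CHRNA3 (0.995) and HS3ST4 (0.994) were most like FBLN5.

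Fibulins did not move as a block. The ratio of FBLN5 to FBLN1 was 4.01 ± 0.638, 0.285 ± 0.0316, 5.50 ± 0.481 and 7.21 ± 0.378 (SD, n = 3) at 0, 3, 6 and 9 d. FBLN1 was thus above FBLN5 in the 3 d libraries and below it in those of the other days. The ratio of FBLN2 to FBLN1 was 16.9 ± 0.932, 5.61 ± 0.358, 44.9 ± 2.196 and 44.7 ± 2.64 on these days, and the libraries of 6 and 9 d overlapped.

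Over the 12 libraries, 8 of the 45 pairs among the 10 genes had a Pearson r over 0.9 on the log2 scale and 13 had one below 0. POSTN and FBLN5 were the most alike (r = 0.983), followed by THBS1 and FN1 (0.962) and by FBLN2 and FBLN5 (0.959). FBLN1 ran against FN1 (r = -0.985) and THBS1 (r = -0.936). TNC and TNXB had an r of -0.0784. These values describe 12 libraries of 4 days and carry no test.

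circRNAs are closed loops made when a splice donor joins an upstream acceptor, and they were measured as reads over that back-splice junction. The libraries held a median of 8034 such reads, and the intervals below cover counting error only. The limits given for counts of 0 cover only the counting error of the day without reads. Positions are those listed by the authors, on build ARS-UCD1.2 by the study's methods, and the sources used here do not give whether starts count from 0 or 1. Of the 22 circRNA entries, 4 had at least 10 reads over the 12 libraries.

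circRNA4724 of TNC spans 104281001 to 104311268 on chromosome 8, + strand, with 2 exons listed. It had 0, 0 and 3 reads at 0 d, 0 in each library of 3 d, 2, 0 and 2 in the 6 d libraries and 4, 6 and 11 in those of 9 d. Its reads were thus most numerous in the 9 d libraries, which held 21 of 28. circRNA98 of TNC lies at 104264699 to 104264962 on the - strand, within 1 exon, and had 3, 0, 8 and 9 reads on the 4 days. circRNA3409 of TNC spans 104248982 to 104251406 on the - strand with 2 exons and had 3, 0, 3 and 8. None of these 3 had a read at 3 d.

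The other 18 TNC circRNAs had 1 to 5 reads each, 47 in all, and 17 of them were below the 5 reads needed for testing. In 12 of the 21, all reads came from 1 library. The TNC entries lay on both strands, 17 on the - strand with 72 reads and 4 on the + strand with 37. A gene is spliced from 1 strand, so entries of 1 of these strands may not be products of TNC.

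circRNA3251 of TNXB spans 27307441 to 27317952 on chromosome 23, + strand, with 7 exons listed. It had 0, 4 and 8 reads in the 0 d libraries and 0 in all 9 others. Only its 0 d reads took it past the limits of 5 reads for testing and 10 for naming. A fall from 0 d was therefore the only difference it could show. The limit of 3 reads over the group that a count of 0 allows, scaled to all back-splice reads, lay 4.41-, 3.60- and 5.53-fold below 0 d at 3, 6 and 9 d. These folds take the 0 d reads as exact and leave out their counting error, so they are not lower bounds on the change. Without 0 d replicate 3, which holds 8 of the 12 reads, these folds were 2.34, 1.91 and 2.93. Leaving out 1 library of the later day lowered them to 2.84-fold at 3 d, 2.14-fold at 6 d and 3.56-fold at 9 d at the least. edgeR called none of these differences (adjusted p = 0.585, 0.646 and 0.568 at 3, 6 and 9 d), and 1 of the 3 libraries of 0 d had no read of it.

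Of the 22 entries, 5 had enough reads for testing with edgeR's quasi-likelihood test, and 0 were called in 3 d vs. 0 d (0.813% of 2828 tested circRNAs were called), 0 in 6 d vs. 0 d (0.53%) and 0 in 9 d vs. 0 d (0.566%). DESeq2 called 0 too. circRNA3251 alone had an unadjusted edgeR p under 0.05 (0.0160, 0.0244 and 0.0156 at 3, 6 and 9 d), and these values rest on the same 12 reads of 0 d. The share of all tested circRNAs under that limit was not counted, so this is no result about the group. With entries within 5 bp summed, which joined circRNA98 and circRNA10979, circRNA4724 passed that limit too in 9 d vs. 0 d. Its edgeR p was 0.0414 (adjusted p = 0.596, not called).

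Summed over its 21 circRNAs, TNC had 3, 8 and 9 back-splice reads in the 0 d libraries and 0, 1 and 0 in those of 3 d. It had 7, 9 and 16 in the 6 d libraries and 11, 14 and 31 in those of 9 d. The 3 d libraries were below all others, and those of 6 d overlapped with those of 0 d and with those of 9 d. Scaled to all back-splice reads, the ratio to 0 d was 0.0453 at 3 d (95% exact interval 0.00109 to 0.283), 1.78 at 6 d (0.985 to 3.28) and 2.03 at 9 d (1.197 to 3.57). The interval of 9 d included 1 without 0 d replicate 1 (0.919 to 2.94) or 9 d replicate 3 (0.749 to 2.67). By strand, in a split made after the data were seen, TNC had 13, 1, 23 and 35 reads on the - strand on the 4 days, with ratios to 0 d of 0.0697 (0.00164 to 0.464), 1.96 (0.954 to 4.22) and 1.95 (1.006 to 4.01). On the + strand it had 7, 0, 9 and 21. In edgeR's test of sums by host gene, TNC was called lower in 3 d vs. 0 d (log2 fold change -4.12, adjusted p = 0.00216), so that 1 of the hosts TNC and TNXB was called where 0.805% of 2111 hosts were. Over the alternatives that adjusted p ran from 0.00104 to 0.0754, and the call was lost without 3 d replicate 3 (log2 fold change -3.58). Without 3 d replicate 2, which holds the lone read of that day, the fitted log2 fold change was -5.81, a value that rests on the prior count and is no bound. Neither host was called in 6 d vs. 0 d (0.521% of hosts called) or in 9 d vs. 0 d (0.237%), where TNC had log2 fold changes of 0.72 and 1.17 (adjusted p = 0.69 and 0.661). TNXB, with its lone circRNA, was not called in any of the 3 (adjusted p = 0.301, 0.653 and 0.467).

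mRNA and back-splice reads of TNC were both lowest at 3 d. TNC had 20, 1, 32 and 56 back-splice reads on the 4 days beside mean mRNA levels of 3957, 60.1, 5473 and 4856 FPKM. A change in their ratio was not tested.

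**Figure D4:**
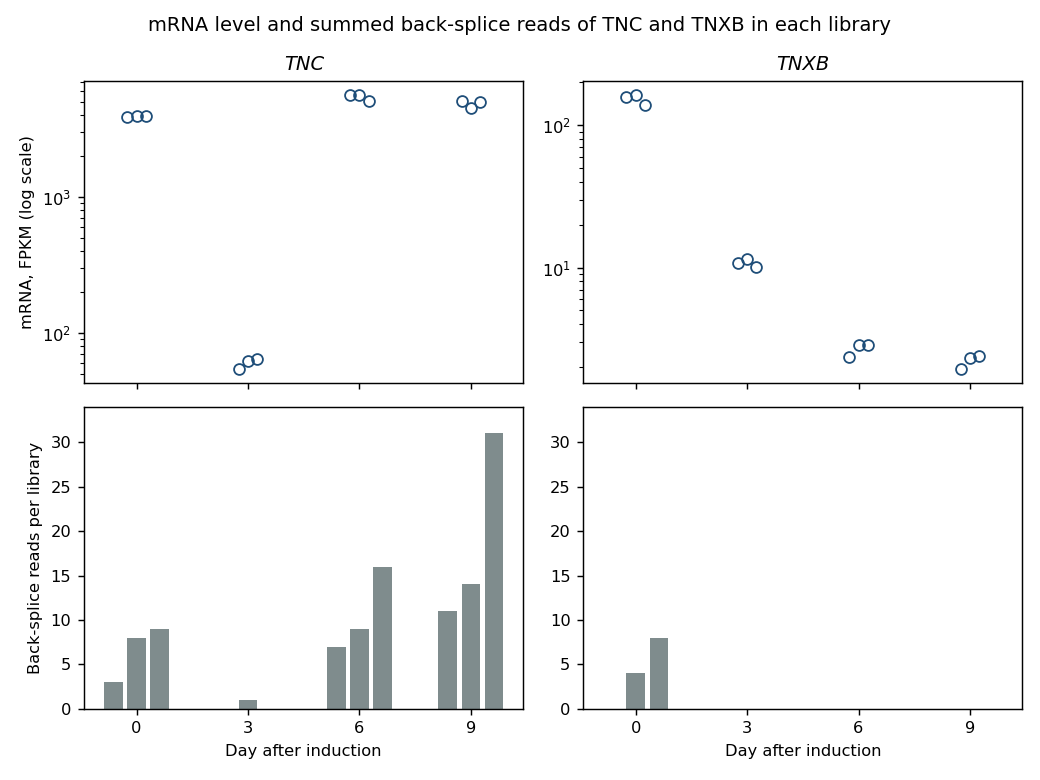
mRNA level in FPKM (upper panels, log scale) and summed back-splice reads (lower panels, bars from 0) of TNC and TNXB in each library against day after induction. TNC has 1 back-splice read in the 3 libraries of 3 d and 56 in those of 9 d, and the 12 back-splice reads of TNXB all lie in 2 libraries of 0 d.

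The 4 lists of related matrix genes set beside the 10 genes are given by their counts and medians. Of all tested mRNAs, 8.06% were called higher and 15.2% lower in 3 d vs. 0 d. These shares were 3.39% and 7.97% in 6 d vs. 0 d and 3.41% and 7.47% in 9 d vs. 0 d. Other matricellular family genes (17 of 18 in the table, 15 tested) had 2 called higher and 7 lower in 3 d vs. 0 d, 3 and 4 in 6 d vs. 0 d and 3 and 3 in 9 d vs. 0 d. A pseudocount of 1 left 5 called genes in place of 9 in 3 d vs. 0 d and 4 in place of 7 in 6 d vs. 0 d, and a mean FPKM of at least 1 left 4 in 6 d vs. 0 d. Their median log2 fold changes were -0.87, 0.09 and 0.27, against -0.06, -0.15 and -0.19 over all tested mRNAs. SPOCK2, a proteoglycan, rose in 3 d vs. 0 d (5.25 ± 0.605 to 22.3 ± 0.72 FPKM, log2 fold change 2.07). EFEMP1, which encodes fibulin-3, fell in 3 d vs. 0 d (86.7 ± 6.94 to 8.61 ± 0.566 FPKM, log2 fold change -3.31) and in 6 d vs. 0 d (to 12.9 ± 0.998 FPKM, -2.74). TGFBI, a relative of periostin, rose in 6 d vs. 0 d (66.4 ± 3.25 to 712 ± 31.6 FPKM, 3.42). SPOCK1 had the largest rise of the list at 9 d (8.69 ± 1.33 to 214 ± 14.5 FPKM, 4.61). SPARCL1, a relative of SPARC, had the largest fall at 9 d (0.723 ± 0.0777 to 0.03 ± 0.0361 FPKM, -2.69), at levels so low that a pseudocount of 1 gave -0.74 and no call.

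Receptors of the 10 proteins (16 genes, all tested) had 2 called higher and 7 lower in 3 d vs. 0 d, 3 and 2 in 6 d vs. 0 d and 4 and 0 in 9 d vs. 0 d, with medians of -0.81, 0.20 and 0.28. Over all tested mRNAs, 23.3%, 11.4% and 10.9% were called in these comparisons, and the medians were -0.06, -0.15 and -0.19. CD36, a receptor of thrombospondin-1 and a fatty acid carrier, rose from 0.307 ± 0.00577 FPKM at 0 d to 3.41 ± 0.284 at 3 d (log2 fold change 3.11) and to 8.07 ± 0.469 at 9 d (4.33). ITGA4, an integrin chain that binds fibronectin, fell from 15.9 ± 2.11 FPKM to 1.43 ± 0.366 at 3 d (-3.40) and 3.00 ± 0.416 at 6 d (-2.37). At 9 d it had 23.9 ± 2.12 FPKM (log2 fold change 0.59 against 0 d, limma adjusted p = 0.0253, not called). ITGA8, a chain of a fibronectin and tenascin receptor, rose in 6 d vs. 0 d (2.59 ± 0.265 to 25.9 ± 0.157 FPKM, 3.28). ITGB3, chosen after its values were seen, had 207 ± 7.53, 23.5 ± 1.33, 195 ± 6.16 and 136 ± 6.25 FPKM at 0, 3, 6 and 9 d. It fell in 3 d vs. 0 d (log2 fold change -3.13) and had its low point on the same day as TNC and POSTN.

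Elastic fibre and microfibril genes (14 in the table, 13 tested) had 1 called higher and 8 lower in 3 d vs. 0 d, 2 and 4 in 6 d vs. 0 d and 2 and 4 in 9 d vs. 0 d. The medians were -1.68, -0.66 and -0.61, against -0.06, -0.15 and -0.19 over all tested mRNAs, of which 23.3%, 11.4% and 10.9% were called. MFAP5, a microfibril protein, rose in all 3 comparisons (18.3 ± 0.811, 67.5 ± 3.95, 106 ± 4.62 and 74.8 ± 6.14 FPKM on the 4 days, log2 fold changes 1.87, 2.53 and 2.02). MFAP4 fell in all 3 (log2 fold changes -3.31, -2.92 and -2.98), from 3.41 ± 0.131 FPKM at 0 d to 0.257 ± 0.0651 at 3 d. ELN, which encodes elastin, was also looked at after its values were seen, because FBLN5 acts in elastic fibres. It had 9142 ± 371, 1106 ± 229, 5174 ± 136 and 4631 ± 321 FPKM at 0, 3, 6 and 9 d and fell in 3 d vs. 0 d (log2 fold change -3.07, limma adjusted p = 2.63383e-08). Its order over the days differs from that of FBLN5 in having 6 d above 9 d, a pair that did not pass the test (adjusted p = 0.452).

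Collagens and collagen-binding proteins (15 of 16 in the table, all 15 tested) had 2 called higher and 5 lower in 3 d vs. 0 d, 5 and 1 in 6 d vs. 0 d and 3 and 0 in 9 d vs. 0 d, with medians of -0.36, 0.03 and 0.40. Among all tested mRNAs the called shares were 23.3%, 11.4% and 10.9%, with medians of -0.06, -0.15 and -0.19. DCN, which encodes decorin, rose in 3 d vs. 0 d from 9949 ± 534 to 42430.4 ± 936 FPKM (log2 fold change 2.09). FMOD, which encodes fibromodulin, fell in 3 d vs. 0 d from 1663 ± 75.7 to 249.8 ± 10.5 FPKM (-2.73) and in 6 d vs. 0 d to 421 ± 27.2 FPKM (-1.98). DPT, which encodes dermatopontin, rose in 6 d vs. 0 d (0.827 ± 0.155 to 2.95 ± 0.255 FPKM, 1.73) and in 9 d vs. 0 d (to 4.22 ± 0.402 FPKM, 2.23). Adipocyte markers had 4 of 6 tested genes called higher at 3 d and 3 at 6 and 9 d, with 0 lower. Of all tested mRNAs, 8.06%, 3.39% and 3.41% were called higher on these days. The sum of the adipocyte markers was mostly PLIN2. Not all peaked at 3 d, since CIDEC was highest at 9 d (0.0833 ± 0.0208, 0.13 ± 0.0721, 0.307 ± 0.0651 and 0.407 ± 0.156 FPKM on the 4 days). A link between these markers and the 10 genes was not tested.

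**Figure D5:**
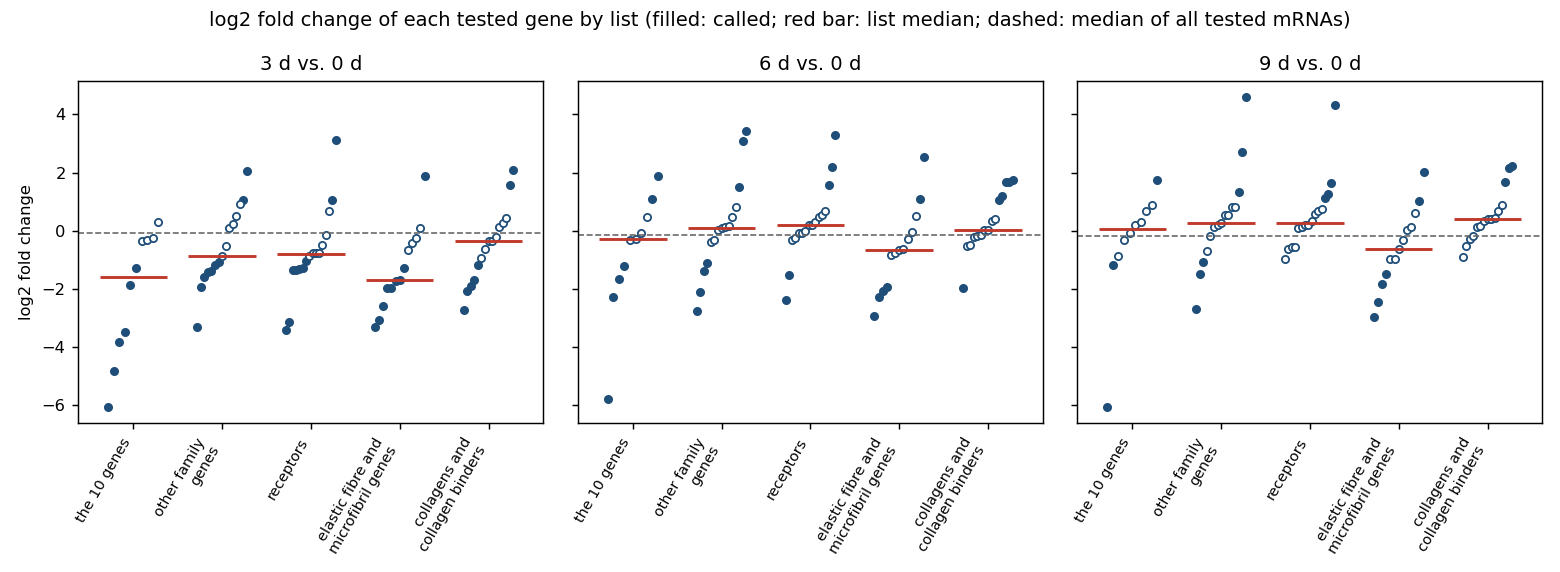
log2 fold change (vertical axis, on log2(FPKM + 0.1)) of each tested gene in the 10 genes and 4 lists at 3, 6 and 9 d vs. 0 d, with filled circles for called changes, red bars for list medians and a dashed line for the median of all tested mRNAs. In 3 d vs. 0 d the medians of the 10 genes (-1.57) and of elastic fibre genes (-1.68) lie lowest.

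FPKM is a share of each library, so changes are relative to the other transcripts. Rescaling FPKM by the median ratio between libraries moved the median of all mRNAs by 0.16 in 6 d vs. 0 d, by 0.20 in 9 d vs. 0 d and by 0.11 in 9 d vs. 3 d on the log2 scale. The share of called mRNAs that were higher went from 29.8% to 40.4% in 6 d vs. 0 d and from 31.3% to 46.4% in 9 d vs. 0 d. Of the 10 genes, SPARC alone changed its sign, as given above.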

How the data were processed

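The authors' deposited mRNA table gives FPKM per gene and library. Their deposited circRNA table gives a count of back-splice reads per junction and a signal per junction, SRPBM, which equals the count times 1 factor per library and was not used further. The submitters' processing notes name Bowtie 0.12.2, HISAT2 2.0 and StringTie 1.3.0 and list the build mm8, whereas the study's methods give ARS-UCD1.2. The labels describe poly(A) selection, and the study's methods describe strand-specific libraries after removal of ribosomal RNA. Libraries were matched by the day and replicate number in their names, and 0 columns of per-library values were left unmatched. The lncRNA and miRNA tables were not used here.

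mRNAs with a mean of at least 0.1 FPKM (15402) were fitted with limma on log2(FPKM + 0.1) with 1 mean per day and a mean-variance trend, and all 6 pairs of days were tested. circRNAs (2828) and sums by host gene (2111) with at least 5 reads over the 12 libraries were tested with edgeR (TMM, quasi-likelihood) against 0 d. Adjusted p-values are Benjamini-Hochberg within a comparison. R 4.3.3, limma 3.58.1, edgeR 4.0.16, DESeq2 1.42.0, Python 3.11.15, NumPy 2.4.6, pandas 2.3.3, SciPy 1.17.1 and Matplotlib 3.10.9 were used, and the pipeline was tested on simulated data.

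The 10 genes, the 4 lists, the marker lists, the tests and the alternatives were set before the data were examined, though with earlier results from the same series known. The genes named were the 10 genes, TNC and TNXB circRNAs with at least 10 reads, and in each list and comparison with 0 d the gene with the largest called rise and the gene with the largest called fall whose libraries did not overlap. ITGB3 and ELN, the markers named within their lists and the back-splice reads of other genes fall outside this rule and were chosen after their values were seen. The mRNAs named as most alike were the 3 with the highest Pearson r for each gene among 9957 with a mean of at least 1 FPKM, of which 1 for FBLN1 is not reported here. FPKM values carry 2 decimals, and read depth was not recovered from them. Of all back-splice reads, 13.5% name no host gene (8.80% to 16.9% per library).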

Additional observations from a re-analysis of the deposited data

How the results depend on the processing

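The alternatives changed 1 choice at a time. The 60 log2 fold changes of the 10 genes kept their direction and their side of the threshold with pseudocounts of 1 and 0.01, without a filter, with a mean FPKM of at least 1, and with only the 6 libraries compared. With the replicate number as a block they did so too, and that block gave 6, 6, 3, 8, 9 and 1 called genes of the 10 in the 6 pairs of days, 0 called circRNAs, and 1, 0 and 0 called hosts of TNC and TNXB. Whether replicate numbers pair the libraries of different days is not settled. Residuals of libraries with the same number had a median r of 0.0219 for mRNAs and 0.0177 for circRNAs, against -0.0108 and -0.00777 for other numbers. Of the 12 libraries, 6 for mRNAs and 8 for circRNAs were closest to one of their own number. With a pseudocount of 1, called mRNAs numbered 2184 in 3 d vs. 0 d, 967 in 6 d vs. 0 d, 888 in 9 d vs. 0 d, 1688 in 6 d vs. 3 d, 1863 in 9 d vs. 3 d and 368 in 9 d vs. 6 d, because a larger pseudocount shrinks changes of low genes. With a mean FPKM of at least 1 there were 1114 in 9 d vs. 0 d, where fewer mRNAs were tested. Rescaled FPKM gave 2 called genes of the 10 in 9 d vs. 6 d, with THBS2 at 1.03, and moved FN1 (1.08) and FBLN1 (-0.98) across the threshold in 9 d vs. 0 d. The cause was not tested. Without 1 library at a time the called genes of the 10 in 9 d vs. 6 d ranged from 1 to 2, since THBS2 was called without 6 d replicate 1 (1.04), 9 d replicate 1 (1.02) or 9 d replicate 3 (1.04). Called hosts among TNC and TNXB in 3 d vs. 0 d ranged from 0 to 1, with 0 without 3 d replicate 3 (TNC, -3.58). Of 720 values without 1 library, 713 stayed on their side of the threshold, 3 moved past it and 4 below it. The sign turned in 2, THBS2 in 6 d vs. 3 d without 3 d replicate 1 (-0.02) or 6 d replicate 1 (-0.01), where it was not called. Other matricellular family genes had 5 calls in 3 d vs. 0 d and 4 in 6 d vs. 0 d with a pseudocount of 1, and 4 in 6 d vs. 0 d with a mean FPKM of at least 1. With back-splice reads this few per circRNA, a lack of calls among TNC and TNXB circRNAs is not evidence of equal levels.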

Other observations

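Back-splice reads were also listed for other genes of the group, as values outside the comparisons above. Summed over the 3 libraries of 0, 3, 6 and 9 d, THBS1 had 10, 3, 18 and 54 reads, SPARC 58, 36, 15 and 38, FN1 12, 1, 15 and 23, and FBLN2 20, 4, 17 and 17. THBS2 had 2, 0, 2 and 3 reads, FBLN5 had 3 at 0 d and 0 later, and FBLN1 had 1 at 0 d and 0 later. POSTN had 0 circRNA entries. The 6 d vs. 0 d difference of SPARC (log2 fold change -1.90) met the call rule with an edgeR adjusted p of 0.0428, which ran from 0.00249 to 1.0 over the alternatives, and its libraries of these days overlapped (32, 23 and 3 reads at 0 d against 4, 4 and 7 at 6 d).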
